A study of Homo sapiens with 6 samples.

Results

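The genes described here are *CXCL1*, *CXCL2*, *CXCL3*, *IL8* and *CCL2*, 5 chemokine genes of the 17222 gene names in a table of RNA-seq read counts. They were chosen by name, with *CXCL8* written *IL8* as in the table, and with their differences between the 2 conditions already known, so these differences are described without a test. H226, an established line of human squamous lung carcinoma cells, was transiently transfected with a control antisense oligonucleotide (ASO_CTRL, 3 libraries) or with ASO_LINC#3, directed against the lncRNA *SWINGN* (*LINC00565*), in the 3 libraries called ASO_LINC, and collected after 48 h. Every library thus carries a transfected oligonucleotide, and 1 oligonucleotide in 1 cell line stands for the knockdown. The comparison asks which transcripts change when the lncRNA is depleted. The level of the lncRNA was not analysed here, which leaves its depletion unchecked in these libraries. No label says whether the replicates were separate cultures. The study describes its experiments in general as done in biological triplicate, except where a legend states otherwise. Any p-value measures only the spread between these libraries.

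Chemokines are small secreted proteins that guide leukocytes along a gradient through receptors on the cell surface. *CXCL1*, *CXCL2*, *CXCL3* and *IL8* encode CXC chemokines that bind CXCR2, and in the case of interleukin-8 also CXCR1, and are best known as attractants of neutrophils. *CCL2* encodes monocyte chemoattractant protein 1, a CC chemokine that binds CCR2 and draws monocytes. Tumour cells and stromal cells make both kinds, and interleukin-1 acting through NF-kB is a classical inducer of both, while their mRNAs carry AU-rich elements that decay factors such as tristetraprolin bind.

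On GRCh37, the 4 CXC genes lie together on chromosome 4. *IL8* occupies 74606236 to 74609433 and *CXCL1* 74735110 to 74737025, both on the plus strand, and *CXCL3*, from 74902306 to 74904524, and *CXCL2*, from 74962757 to 74964913, are on the minus strand. *CCL2* lies on the plus strand of chromosome 17 from 32582293 to 32584227. All 5 are protein-coding, and the annotation places 0 other genes over any of them on either strand. Promoter windows of RefSeq on GRCh38.p14, reaching from 250 bases before to 50 after each start, were matched for 4 of the 5 members, *CCL2* being the other. The 120 bases upstream of the start are shown for these 4 because the genes moved together. Capitals mark GGAATTTCC, the letters that all 4 share and that overlap the NF-kB consensus in the first 3.
*CXCL1*, chr4:73869273-73869392, plus strand: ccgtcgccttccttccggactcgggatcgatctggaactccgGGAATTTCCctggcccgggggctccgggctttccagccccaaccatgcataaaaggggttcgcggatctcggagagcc
*CXCL2*, chr4:74099196-74099315, minus strand: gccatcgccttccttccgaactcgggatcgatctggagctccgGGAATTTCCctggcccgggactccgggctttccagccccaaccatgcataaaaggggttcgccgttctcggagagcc
*CXCL3*, chr4:74038690-74038809, minus strand: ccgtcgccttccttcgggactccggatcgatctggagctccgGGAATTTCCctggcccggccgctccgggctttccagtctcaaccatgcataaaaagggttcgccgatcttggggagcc
*IL8*, chr4:73740449-73740568, plus strand: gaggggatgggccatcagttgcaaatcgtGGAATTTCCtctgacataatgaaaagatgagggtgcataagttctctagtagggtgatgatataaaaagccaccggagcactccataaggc

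Counted back from the start, GGAATTTCC spans positions -78 to -70 in *CXCL1* and *CXCL3*, -77 to -69 in *CXCL2* and -91 to -83 in *IL8*, each time on the strand of the gene. Searched on both strands, these letters are held by 162 of the 35116 promoter windows of the same length in that table, or 0.461%, and the NF-kB consensus by 5.91%. The letters were marked as those that the 4 windows share, so their presence in all 4 is no test against this share. *CXCL1*, *CXCL2* and *CXCL3* are also paralogues with similar windows, so their matches are not separate findings. The consensus was searched in a form that begins with GGG. It was found in *CXCL1*, *CXCL2* and *CXCL3*, on both strands at overlapping positions, but not in *IL8*, where the base before GGAATTTCC is T. The search thus does not show that *IL8* lacks an NF-kB site. The AP-1 motif TGANTCA, held by 7.71% of all windows, was found in *IL8* alone of the 4, as TGACTCA at -137 to -131. *CXCL1*, *CXCL2* and *CXCL3* share CATAAAA at -31 to -25, and *IL8* has TATAAA at -31 to -26, which 3.70% and 11.5% of all windows hold on either strand. Aligned over 300 bases, the windows of *CXCL1* and *CXCL3* were 82.5% identical, that of *CXCL2* was 69.8% and 73.7% identical to them, and that of *IL8* was 43.1% to 44.2% identical to the other three. These matches are letters in a window and were not measured as binding.

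The transcripts of the 3 paralogues are also alike, *CXCL1* and *CXCL2* at 83.4% identity, *CXCL2* and *CXCL3* at 71.5%, and *CXCL1* and *CXCL3* at 68.0%. Since reads of 75 bases were counted, the share of 75-base stretches that a second gene's annotated transcripts also hold was computed. It was 0.273% in *CXCL1* (shared with *CXCL2*), 2.50% in *CXCL2* (shared with *CXCL1* and *CXCL3*) and 2.30% in *CXCL3* (shared with *CXCL2*). *IL8* and *CCL2* had 0 such stretches. Reads from the shared stretches cannot be assigned to one paralogue, and such stretches make up a few percent of each transcript or less. Stretches that differ by a few bases were not counted, and the share of reads that fell on shared stretches was not measured.

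The reads counted on genes numbered from 3686828 to 10546786 per library, and ASO_LINC replicate 3 had the fewest. The reads that did not align made up 13.2% to 14.1% of each ASO_CTRL library and 15.8% to 16.4% of each ASO_LINC library, and their part in the results was not tested. Of 6 markers of squamous epithelium, *KRT5* was at 103 ± 12.3 CPM in ASO_CTRL and 69.0 ± 7.87 CPM in ASO_LINC (SD, n = 3) and *KRT6A* had 0, 0 and 1 reads in ASO_CTRL and 14, 5 and 4 reads in ASO_LINC, while the other 4 were not analysed here. Of 6 markers of simple epithelium and mesothelium, 5 were measured, with summed levels of 11726 to 12672 CPM in ASO_CTRL and 7129 to 12483 CPM in ASO_LINC. ASO_LINC replicate 3 stood apart here, with *KRT18* at 5260 CPM, at the level of the controls (4974 to 5259 CPM), against 2924 and 2881 CPM in ASO_LINC replicates 1 and 2. Of 6 leukocyte markers, *CD14* and *CD68* were measured, at a summed 2.56 to 3.61 CPM in ASO_CTRL and 3.53 to 8.68 CPM in ASO_LINC, of which *CD68* makes the larger part in ASO_LINC. Of 6 fibroblast markers 2 were measured, *THY1*, at 117 ± 8.69 and 104 ± 21.4 CPM, and *COL3A1*, at 10.8 ± 1.36 and 3.49 ± 1.18 CPM, in ASO_CTRL and ASO_LINC. The part of these markers in the results was not tested, and in bulk RNA fewer cells of a type and less RNA per cell cannot be told apart.

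In the knockdown libraries the 4 CXC chemokine mRNAs were higher and *CCL2* mRNA was lower than in any control library. Throughout, a gene was called at less than 0.01 for the adjusted p-value and more than 0.5 for the log2 fold change in either direction, by edgeR's quasi-likelihood test. All 5 members meet these limits and have conditions that do not overlap, which their choice on this contrast fixed, so this count is no test of them. Of the 14660 genes tested, 7.54% were called, 4.91% as higher and 2.63% as lower, and in 36.1% the conditions did not overlap, with ASO_LINC higher in 18.7% and lower in 17.3%. The 1106 calls behind the first share became 2616 without ASO_LINC replicate 3, 531 without ASO_LINC replicate 2, 425 without ASO_LINC replicate 1, and 493, 505 and 359 without ASO_CTRL replicates 1, 2 and 3. Levels are given as CPM, the reads of a gene per 1000000 reads on genes after TMM scaling, as mean ± SD of 3 libraries, and log2 fold changes (ASO_LINC minus ASO_CTRL) with their standard error (SE).

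*CXCL1*, the founding member of the GRO chemokines, had 388, 228 and 601 reads in ASO_CTRL replicates 1, 2 and 3 and 1052, 909 and 421 reads in ASO_LINC replicates 1, 2 and 3. Scaled for depth, these were 52.3, 39.2 and 57.3 CPM against 155, 156 and 114 CPM. The lowest knockdown library, replicate 3, was thus still well above the highest control library, which is also replicate 3. The mean rose from 49.6 ± 9.34 CPM to 141 ± 23.6 CPM, with a log2 fold change of 1.51 (SE 0.18) or 2.85-fold. Of the tested genes, 1.88% had a larger increase.

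*CXCL2*, its close paralogue, had 165, 119 and 318 reads in the control libraries and 610, 499 and 217 in the knockdown libraries. In CPM these were 22.2, 20.5 and 30.3 against 89.7, 85.4 and 58.8. As for *CXCL1*, replicate 3 was the highest control library and the lowest knockdown library, and the conditions remained apart. The mean rose from 24.3 ± 5.26 CPM to 78.0 ± 16.7 CPM, with a log2 fold change of 1.67 (SE 0.20) or 3.19-fold. The count of *CXCL2* was a near constant share of that of *CXCL1* in the same library, from 0.425 to 0.580 reads per read of *CXCL1* over all 6 libraries, with means of 0.492 ± 0.058 in ASO_CTRL and 0.548 ± 0.032 in ASO_LINC (SD, n = 3).

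*CXCL3*, the third GRO gene, was the least abundant member, with 42, 29 and 43 reads in ASO_CTRL and 121, 115 and 122 reads in ASO_LINC. In CPM these were 5.66, 4.99 and 4.10 against 17.8, 19.7 and 33.1. Here ASO_LINC replicate 3 was the highest of the 6 libraries, in contrast to its place for *CXCL1*, *CXCL2* and *IL8*. The exact 95% Poisson interval of its count corresponds to 27.5 to 39.5 CPM, above those of replicate 1 (14.8 to 21.2) and replicate 2 (16.2 to 23.6). Such intervals cover counting error only. The ratio of *CXCL3* to *CXCL1* reads was between 0.072 and 0.127 in the other 5 libraries and 0.290 in this one. The mean of *CXCL3* rose from 4.92 ± 0.78 CPM to 23.5 ± 8.34 CPM, with a log2 fold change of 2.24 (SE 0.27) or 4.73-fold, and without ASO_LINC replicate 3 it was 1.94.

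*IL8*, which encodes interleukin-8, had 214, 62 and 143 reads in the control libraries and 594, 552 and 171 in the knockdown libraries. In CPM these were 28.8, 10.7 and 13.6 against 87.3, 94.5 and 46.4. The controls were uneven, replicate 1 being the highest with a Poisson interval of 25.1 to 33.0 CPM, against 8.18 to 13.7 in replicate 2 and 11.5 to 16.1 in replicate 3. The mean rose from 17.7 ± 9.74 CPM to 76.0 ± 26.0 CPM, with a log2 fold change of 2.11 (SE 0.35) or 4.31-fold. *IL8* had the widest relative spread among the controls, with an SD of 55.0% of the mean, where the other members had from 12.1% to 21.6%. Without ASO_CTRL replicate 1 its log2 fold change was 2.64, and without ASO_LINC replicate 3 it was 2.35, while the lowest value, without ASO_CTRL replicate 2, was 1.87.

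*CCL2* went the other way. Its counts were 1708, 1112 and 2543 reads in ASO_CTRL and 570, 463 and 342 reads in ASO_LINC, or 230, 191 and 243 CPM against 83.8, 79.2 and 92.7 CPM. The lowest control library, replicate 2, was far above the highest knockdown library, replicate 3. The mean fell from 221 ± 26.7 CPM to 85.2 ± 6.86 CPM, with a log2 fold change of −1.38 (SE 0.14) or 2.60-fold lower, and 1.34% of the tested genes had a larger decrease. *CCL2* was the most evenly measured member, with an SD of 12.1% of the mean in ASO_CTRL and 8.05% in ASO_LINC.

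**Figure D1:**
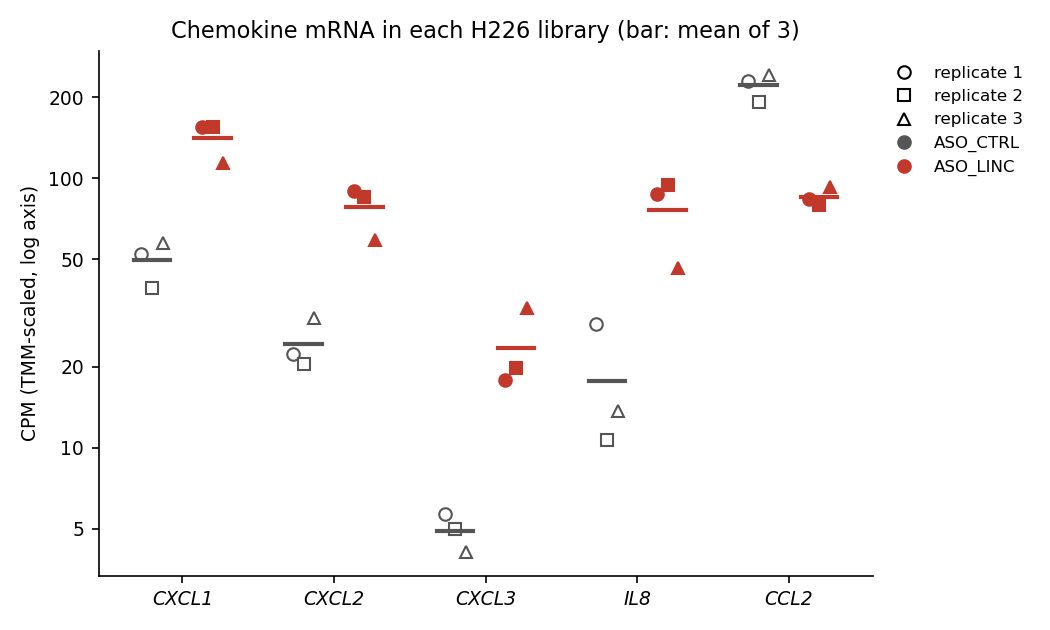
CPM (TMM-scaled, log axis) of the 5 chemokine mRNAs in each library; open grey symbols are ASO_CTRL, filled red symbols ASO_LINC, symbol shapes the replicate numbers and bars the mean of 3. The 4 CXC genes lie higher in every ASO_LINC library and *CCL2* lower, and ASO_LINC replicate 3 is the lowest red point for *CXCL1*, *CXCL2* and *IL8* but the highest for *CXCL3* and *CCL2*.

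The opposite directions can be read within each library, where no scaling for depth is needed. For every read of *CCL2* the 4 CXC genes together had 0.474, 0.394 and 0.435 reads in the control libraries and 4.17, 4.48 and 2.72 reads in the knockdown libraries. The ratio thus went from 0.434 ± 0.040 to 3.79 ± 0.94 (SD, n = 3), a difference of 3.10 on the log2 scale. Leaving out each library in turn kept this difference between 2.96 and 3.32. The summed level of the 4 CXC genes was 96.6 ± 18.5 CPM in ASO_CTRL and 319 ± 57.7 CPM in ASO_LINC.

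Levels of different genes were compared per kilobase of the annotated canonical transcript, which is 741 bases long for *CCL2* and between 1075 and 1642 bases for the CXC genes. cDNA was primed from the poly(A) tail, and if reads gather near the 3′ end a division by length lowers the longer transcripts, so these comparisons between genes depend on how evenly the reads covered them. In ASO_CTRL the order was *CCL2*, at 299 ± 36.0 CPM per kb, then *CXCL1* at 42.3 ± 7.95, *CXCL2* at 21.8 ± 4.72, *IL8* at 10.8 ± 5.93 and *CXCL3* at 4.57 ± 0.73. No libraries of neighbours in this order overlapped. In ASO_LINC *CXCL1*, at 120 ± 20.1 CPM per kb, and *CCL2*, at 115 ± 9.26, were not separated, as *CXCL1* was ahead in replicates 1 and 2 and *CCL2* in replicate 3. *CXCL2* followed at 69.9 ± 15.0, *IL8* at 46.3 ± 15.8 and *CXCL3* at 21.9 ± 7.75 CPM per kb, and here the libraries of *CXCL2* overlapped those of *IL8*, and those of *IL8* overlapped those of *CXCL3*, which was ahead in replicate 3.

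Per kb, the summed level of the 5 mRNAs was close in the 2 conditions, at 378 ± 50.1 CPM per kb in ASO_CTRL and 374 ± 34.2 in ASO_LINC. The libraries, from 321 to 416 and from 334 to 395 CPM per kb, overlap. This closeness depends on the division by length, which gives the short *CCL2* transcript more weight. In plain CPM the rise of the 4 summed CXC genes (96.6 ± 18.5 to 319 ± 57.7) exceeded the fall of *CCL2* (221 ± 26.7 to 85.2 ± 6.86). The make-up of the sum per kb was different. *CCL2* contributed 79.1 ± 1.20% of the sum in ASO_CTRL and 31.1 ± 5.52% in ASO_LINC. The share of *CXCL1* was 11.1 ± 0.68% in ASO_CTRL and 32.1 ± 2.60% in ASO_LINC, that of *CXCL2* 5.76 ± 0.77% and 18.6 ± 2.44%, that of *IL8* 2.81 ± 1.39% and 12.2 ± 3.30%, and that of *CXCL3* 1.23 ± 0.28% and 6.02 ± 2.77% (SD, n = 3). In every control library *CCL2* was thus the main chemokine mRNA of the 5, and in every knockdown library the 4 CXC mRNAs outweighed it.

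**Figure D2:**
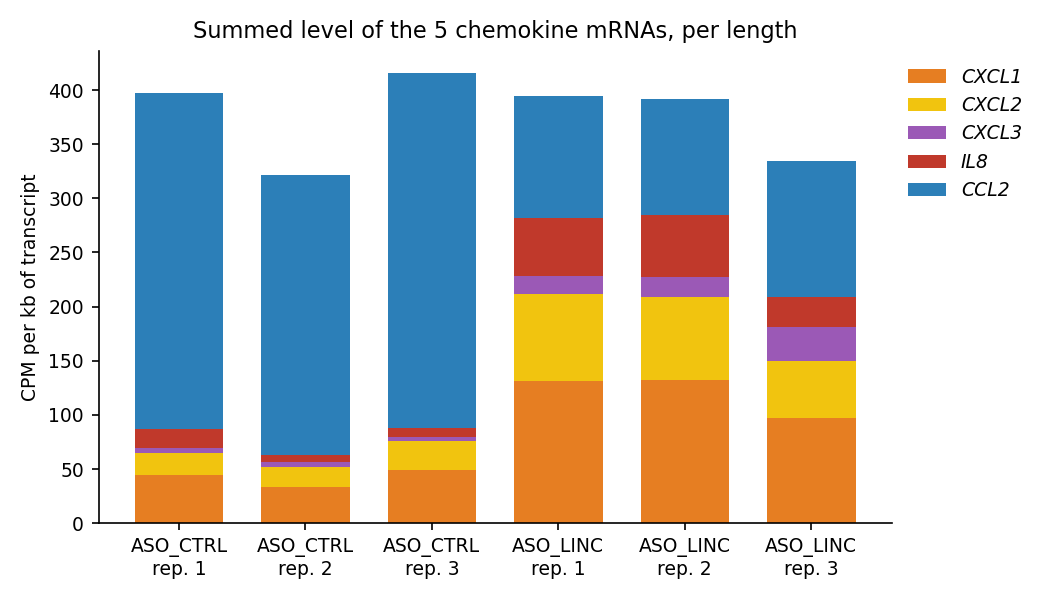
Stacked levels of the 5 chemokine mRNAs in CPM per kb of transcript, 1 bar per library, 3 ASO_CTRL on the left and 3 ASO_LINC on the right. The bar heights overlap between conditions, while the blue *CCL2* segment takes 79.1% of the sum on average in ASO_CTRL and 31.1% in ASO_LINC.

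Across the 6 libraries the log2 CPM of *CXCL1* had a Pearson r of 0.992 with *CXCL2*, 0.947 with *IL8* and 0.871 with *CXCL3*, and of −0.931 with *CCL2*. These values mostly reflect the difference between 2 conditions of 3 libraries each and are given as a description. The genes most like the mean of the 4 CXC members, among the 10216 genes averaging 50 reads or more, were *LOX* (r = 0.998), which encodes lysyl oxidase, *MT2A* (r = 0.997), a metallothionein gene, and *SERINC3* (r = 0.997). *LOX* was at 267 ± 39.4 CPM in ASO_CTRL and 1390 ± 217 CPM in ASO_LINC, and *MT2A* at 1378 ± 141 and 4520 ± 338 CPM. *SERINC3*, at 129 ± 4.85 and 197 ± 6.19 CPM, had a log2 fold change of 0.61, smaller than that of any CXC member. Most like *CCL2* were *SPARC* (r above 0.999), a matricellular protein gene, at 3722 ± 204 CPM in ASO_CTRL and 2411 ± 76.2 CPM in ASO_LINC, *MTCH2* (r = 0.999) and *ALPK2* (r = 0.999). *MTCH2*, at 134 ± 2.67 and 112 ± 2.03 CPM, has a far smaller difference than *CCL2*, since r is blind to the size of a change.

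Of 13 further CXC ligand genes, 2 were measured and tested. Among all 14660 tested genes, 7.54% were called and 4752 had an unadjusted p-value below 0.05 from edgeR. Of the 2 ligand genes, 0 were called by edgeR's quasi-likelihood test or by DESeq2, and 1 had an unadjusted p-value below 0.05. This was *CXCL16*, a membrane-bound chemokine that binds CXCR6, with 17.4, 18.4 and 17.8 CPM in ASO_CTRL and 11.8, 8.39 and 14.9 CPM in ASO_LINC and a log2 fold change of −0.64 (SE 0.21, adjusted p = 0.0590 from edgeR). The other, *CXCL14*, was at 1.88 ± 0.50 and 1.27 ± 0.38 CPM. *CXCL5* and *CXCL6*, which share the cluster and the receptor of the members, were not analysed here.

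Of 30 further CC, C and CX3C ligand genes, 6 were measured and 3 passed the filter on low counts. Of these, 1 was called, where 7.54% of all tested genes were called. *CCL5*, a CC chemokine known as RANTES that draws T cells and monocytes, fell as *CCL2* did. Its levels were 70.8, 81.4 and 85.0 CPM in ASO_CTRL and 44.7, 44.8 and 48.0 CPM in ASO_LINC, without overlap, and its log2 fold change was −0.79 (SE 0.13, adjusted p = 0.00304 from edgeR). The call was kept without ASO_CTRL replicate 1 (adjusted p = 0.00794) or ASO_LINC replicate 3 (0.00047) and lost without ASO_CTRL replicate 2 (0.0165), ASO_CTRL replicate 3 (0.0255), ASO_LINC replicate 1 (0.0218) or ASO_LINC replicate 2 (0.0164). *CCL26*, an attractant of eosinophils, had 12.9 ± 1.49 and 19.1 ± 0.67 CPM (log2 fold change 0.56, SE 0.17, adjusted p = 0.0397), which is not past the threshold although the conditions did not overlap. *CCL20*, an NF-kB target that binds CCR6, had 2.22 ± 1.09 and 3.10 ± 1.23 CPM (log2 fold change 0.51, SE 0.42, adjusted p = 0.438). *CCL7*, a relative of *CCL2* that lies beside it on chromosome 17, had at most 11 reads in a library and was not tested.

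Of 23 receptor genes, 4 were measured and 2 tested, of which 1 was called, where 7.54% of all tested genes were called. *CXCR1*, *CXCR2* and *CCR2*, the receptors of the members, were not analysed here. *CCRL2*, an atypical receptor that binds chemerin without known signalling, had 7, 6 and 16 reads in ASO_CTRL and 42, 40 and 29 reads in ASO_LINC, or 1.17 ± 0.31 and 6.96 ± 0.85 CPM. It rose by 2.49 on the log2 scale (SE 0.29, adjusted p = 0.000326 from edgeR) and kept its call in each of the 6 fits that left out 1 library. *CCR10* was at 1.33 ± 0.75 and 2.22 ± 1.15 CPM and was not called (adjusted p = 0.485).

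The signalling that is known to switch on chemokine genes was measured more fully. Of 29 genes of the interleukin-1 and NF-kB pathway, 27 were tested, of which 9 rose, 1 fell and 17 were not called. Among all tested genes, 4.91% were called higher and 2.63% lower. The median log2 fold change of the 27 genes was 0.37, where the median of all tested genes was −0.003. The list was drawn up with earlier results of these data known, so these values describe it and are no test of the pathway. The 6 called genes with the smallest p-values include the cytokines *IL1B*, at a log2 fold change of 2.28 (SE 0.16), and *IL1A*, at 2.58 (SE 0.30), and *IRAK2*, a kinase-like adaptor of the interleukin-1 receptor, at 1.83 (SE 0.17). They also include feedback inhibitors of NF-kB, with *TNFAIP3*, which encodes the ubiquitin-editing protein A20, at 1.38 (SE 0.15), *NFKBIE*, an inhibitor of the IkB family, at 1.16 (SE 0.13) and *TNIP1*, a partner of A20, at 1.14 (SE 0.15). These 6 kept their calls in each of the 6 fits that left out 1 library. The 1 gene that fell, singled out after its value was seen, was *IL1R1*, the signalling receptor of interleukin-1, with 15.8 ± 2.08 CPM in ASO_CTRL and 6.13 ± 0.39 CPM in ASO_LINC, a log2 fold change of −1.37 (SE 0.20, adjusted p = 0.00114 from edgeR). Its call was lost without ASO_LINC replicate 1 (adjusted p = 0.0105), and without that library 6 genes of the list were called in place of 10.

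Of the 5 genes for NF-kB subunits, which are part of the same list, *NFKB2* and *RELA* were called, where 7.54% of all tested genes were called. So few genes show nothing particular to the subunits. *NFKB2*, at 12.8 ± 1.62 and 28.8 ± 8.19 CPM, had a log2 fold change of 1.14 (SE 0.21, adjusted p = 0.00526 from edgeR). Its call was kept without ASO_LINC replicate 2 (0.00737) or 3 (0.00133) and lost without ASO_CTRL replicates 1 (0.0231), 2 (0.0262) or 3 (0.0228) or ASO_LINC replicate 1 (0.0113). *RELA*, at 55.8 ± 5.33 and 88.0 ± 7.40 CPM, had a log2 fold change of 0.65 (SE 0.14, adjusted p = 0.00873 from edgeR), and kept this call only without ASO_LINC replicate 3 (0.00282), with adjusted p-values of 0.0264, 0.0381 and 0.0454 without ASO_CTRL replicates 1, 2 and 3 and of 0.0296 and 0.0256 without ASO_LINC replicates 1 and 2. *NFKB1* was at 65.9 ± 3.23 and 79.9 ± 3.87 CPM (log2 fold change 0.28, adjusted p = 0.146), *RELB* at 26.2 ± 6.14 and 40.3 ± 1.76 CPM (0.61, adjusted p = 0.0398) and *REL* at 4.56 ± 0.87 and 6.98 ± 0.88 CPM (0.59, adjusted p = 0.110), and these 3 were not called. *NFKBIA*, the main NF-kB inhibitor and itself an early target, was not called at 135 ± 12.2 and 155 ± 16.3 CPM (log2 fold change 0.20, adjusted p = 0.332), nor was *NFKBIZ*, a nuclear co-activator of chemokine genes, at 24.0 ± 1.43 and 26.2 ± 3.50 CPM (log2 fold change 0.14, adjusted p = 0.594). *TNF*, the other classical inducer, had at most 6 reads in any library and was not tested.

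Of 15 genes for proteins that act on the decay of short-lived mRNAs, all were tested, 3 rose, 0 fell and 12 were not called, with a median log2 fold change of 0.19. This list, too, was drawn up with earlier results of these data known, so its counts are no test. Among all tested genes, 4.91% were called higher and 2.63% lower. *ZFP36*, which encodes tristetraprolin, rose from 32.5 ± 1.37 CPM to 74.8 ± 5.40 CPM, with a log2 fold change of 1.20 (SE 0.13, adjusted p = 0.000231 from edgeR), and kept its call in each fit that left out 1 library. Its relative *ZFP36L1* rose by 0.85 on the log2 scale (SE 0.13, adjusted p = 0.00214), kept without ASO_CTRL replicate 2 (0.00623) or ASO_LINC replicate 3 (0.000179) and lost without ASO_CTRL replicates 1 (0.0123) or 3 (0.0171) or ASO_LINC replicates 1 (0.0162) or 2 (0.0102). *DUSP1*, a phosphatase of p38 and JNK, rose by 0.78 (SE 0.12, adjusted p = 0.00176) and lost its call without ASO_CTRL replicate 2 (0.0113) or 3 (0.0116). Without ASO_CTRL replicate 3, 1 gene of the list was called in place of 3. *ZC3H12A*, which encodes the ribonuclease Regnase-1, was at 22.5 ± 3.94 and 33.3 ± 4.93 CPM (log2 fold change 0.55, SE 0.18, adjusted p = 0.0574).

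**Figure D3:**
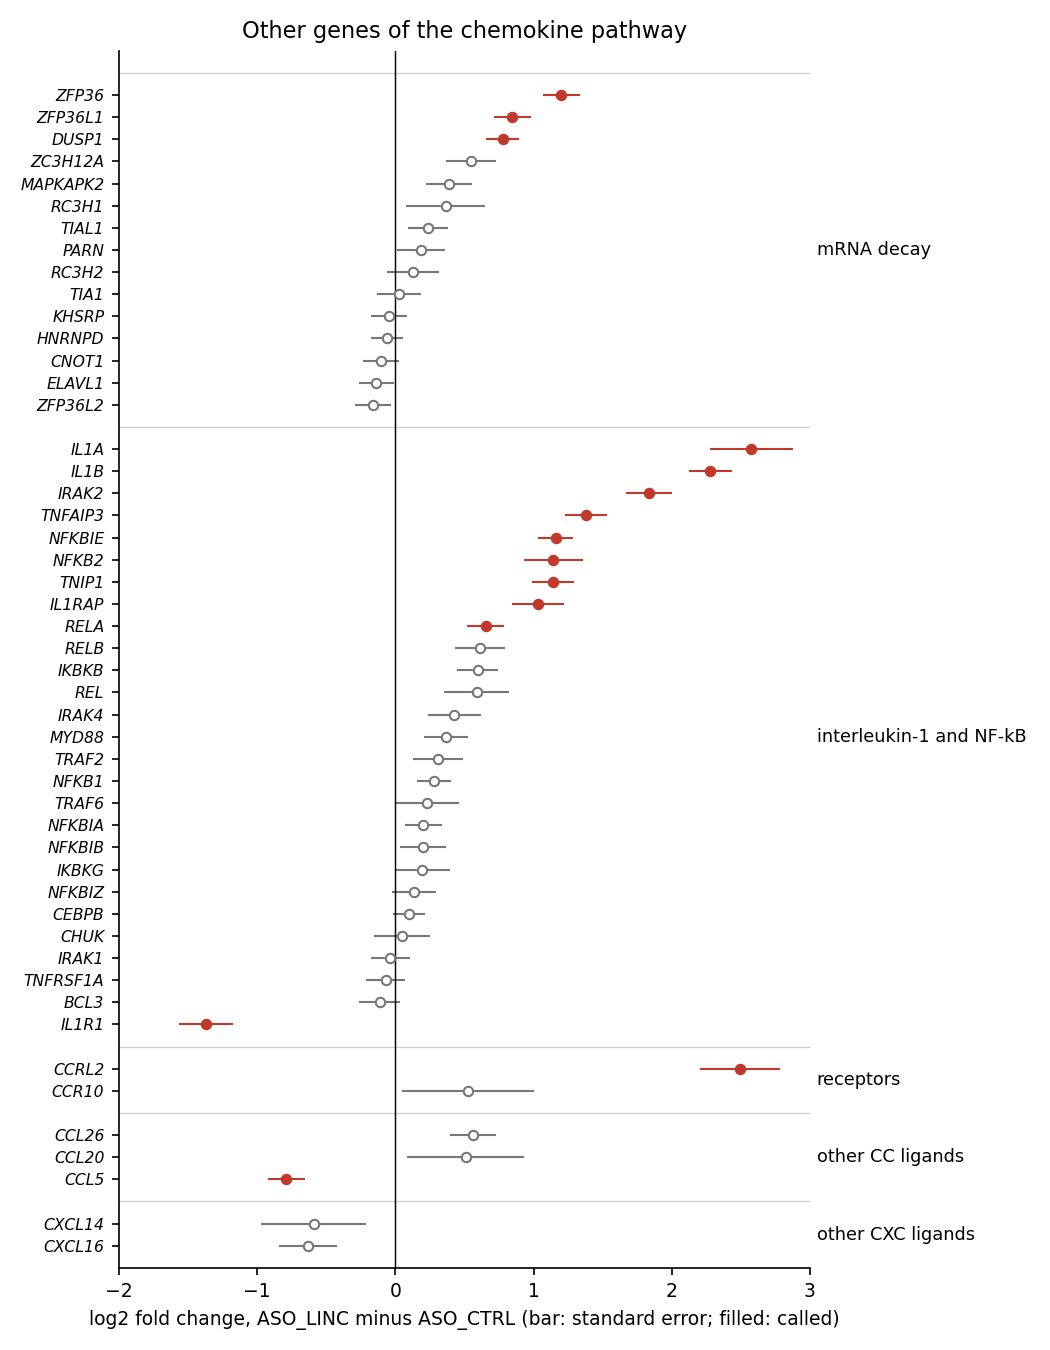
Log2 fold change (ASO_LINC minus ASO_CTRL, horizontal axis) with its standard error for the tested genes of 5 lists of the chemokine pathway, members left out; filled red symbols are called. Called genes lie to the right for interleukin-1, NF-kB and mRNA decay genes except *IL1R1*, and *CCL5* is the 1 called ligand, to the left.

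Within 1000000 bp of the chemokine cluster of chromosome 4, 7 other genes were tested, of which 1 rose and 6 were not called, with a median log2 fold change of −0.05, while 7.54% of all tested genes were called. So few genes show nothing particular to the neighbourhood. The 1 gene was *AREG*, which encodes the growth factor amphiregulin, with 6, 6 and 11 reads in ASO_CTRL and 27, 23 and 12 reads in ASO_LINC, or 0.96 ± 0.13 and 3.72 ± 0.40 CPM. Its log2 fold change was 1.94 (SE 0.31, adjusted p = 0.00213 from edgeR), a value that is uncertain because a near-identical copy is listed separately as *AREGB*, at 1.48 ± 0.56 and 2.17 ± 1.14 CPM. The call of *AREG* was kept without ASO_LINC replicate 3 (0.00121) and lost without any other library, with adjusted p-values of 0.0139, 0.0105 and 0.0179 without ASO_CTRL replicates 1, 2 and 3 and of 0.0169 and 0.0120 without ASO_LINC replicates 1 and 2. *MTHFD2L*, which lies next to *CXCL2* and encodes a mitochondrial folate enzyme, was at 11.9 ± 2.66 and 11.3 ± 4.16 CPM. Around *CCL2*, 8 other genes within the same distance were tested and 0 were called by edgeR or by DESeq2, with 1 at an unadjusted p-value below 0.05. Among all 14660 tested genes, 4752 had an unadjusted p-value below 0.05 from edgeR, so this 1 gene does not stand out. The log2 fold changes of the 8 genes ran from −0.57 for *ASIC2* to 0.68 for *TLK2P1*, with a median of 0.14. At both places only names that matched the annotation could be placed, 13272 by symbol and 949 by an older symbol, of 17222. Other measured genes may thus lie within the same distance.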

How the data were processed

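RNA of H226 cells, 3 libraries per condition, was sequenced. Per the labels and the study's methods, the authors used STAR with hg19 and deposited the counts of each library without pooling or normalization, and the counter, annotation and strand setting are not given in the sources used here. The final 4 rows, reads of no gene (24.8% to 28.1% of a library), were left out. Of 17222 names, 21 were dates and were used as listed.

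Conditions and replicate numbers came from the sample titles. The study's methods name BJ cells for this experiment, while its Results and the labels name H226, which was followed. Genes were kept by filterByExpr (14660), scaled by TMM and compared with edgeR 4.0.16 in R 4.3.3 by its quasi-likelihood test, with Benjamini-Hochberg adjusted p-values over all tested genes. Calls needed less than 0.01 there and more than 0.5 in log2 fold change, in either direction. The standard error is the log2 fold change divided by the square root of F. Likeness used log2 CPM, where a prior count of 2 was added. The fit was tested on simulated data.

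The members and gene lists were chosen with earlier results of these data known. Named genes are the members, the called genes of each list (at most 6 by p-value), a fixed set of relatives, receptors and regulators, and the 3 genes most like each pattern by Pearson r. *CXCL14*, *CXCL16*, *CCL26*, *CCR10*, *IL1R1*, *NFKB2*, *RELB*, *REL*, *KRT18*, *AREGB*, *MTHFD2L*, *ASIC2* and *TLK2P1* were named after their values were seen. Positions and transcript lengths came from GENCODE lifted to GRCh37, which need not be the authors' annotation, and promoters from RefSeq. Alternatives were DESeq2 1.42.0, voom of limma 3.58.1, other scalings, filters and thresholds, the replicate number as a block, summed paralogues and leaving out each library.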

Additional observations from a re-analysis of the deposited data

How the results depend on the processing

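The log2 fold changes of the 5 members kept their sign in every alternative run, and they moved by less than the spread of the libraries. The reads of *CXCL1*, *CXCL2* and *CXCL3* were also summed to 1 feature, whose log2 fold change was 1.62. This lies further from the 2.24 of *CXCL3* alone than the spread of the libraries. *CXCL1* has the most of these reads in each library, so the value is not another estimate for *CXCL3*. Without each library in turn the log2 fold changes of the members ranged from 1.38 to 1.64 for *CXCL1*, 1.56 to 1.87 for *CXCL2*, 1.94 to 2.42 for *CXCL3*, 1.87 to 2.64 for *IL8* and −1.47 to −1.31 for *CCL2*. The number of genes called, 1106, was 2465 with a threshold of 0.05 for the adjusted p-value and 656 with the replicate number as a block, and without each library in turn from 359 (ASO_CTRL replicate 3) to 531 (ASO_LINC replicate 2), except 2616 without ASO_LINC replicate 3. Libraries that share a number did not deviate together (correlations of 0.059, −0.149 and −0.180 for replicates 1, 2 and 3), so the number was not taken as a pairing. With the block, the log2 fold change of *IL8* was 2.13 and that of *CCL2* −1.37. Of the further ligands and receptors, 1 was called in place of 2 with the block or with at least 10 counts in every library, and from 1 to 3 without each library. The NF-kB and interleukin-1 genes called were 10, and from 6 (without ASO_LINC replicate 1) to 11 without each library, the mRNA decay genes 3, and from 1 (without ASO_CTRL replicate 3) to 3, and the neighbours from 0 to 1. Of the neighbours, 2 were called with the threshold of 0.05 and 0 with at least 10 counts in every library, a filter that removes *AREG* itself. The causes of the other differences were not tested. Among the members the control counts were lowest for *CXCL3*, at 29 to 43 reads.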
